A study of Mus musculus with 20 samples.

Results

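The genes described here encode the receptors and transporters through which neurons release, sense and take up the transmitter glutamate. They were the 31 genes whose symbol in the count table matched a fixed list, out of 48795 genes in the table: 4 AMPA, 5 kainate, 7 NMDA and 1 delta receptor genes, 7 metabotropic receptor genes, 3 AMPA receptor auxiliary genes, 3 vesicular transporters and 1 plasma membrane transporter. Of these, 29 had enough counts to be tested among 17313 genes. Bulk RNA was read from 20 brains of CD-1 wild-type mice, an outbred stock of both sexes, with 5 mice in each of 4 groups. MIR rapamycin and MIR vehicle mice were born to dams injected with lipopolysaccharide, a bacterial cell wall component that raises a maternal inflammatory response (MIR), at 0.008 mg/kg on gestation day 9, whereas control rapamycin and control vehicle mice were born to dams given saline. The mTOR inhibitor rapamycin or its DMSO vehicle was injected 2 hours before euthanasia. The labels name the tissue as brain, and the study's methods name it as microdissected sensory-motor cortex. Neither litter nor age is given per library. The study's litter list places sequencing under fewer litters of each kind than mice here, beside tests of young mice. By that list littermates are among these mice. The p-values therefore measure the spread between mice, not between litters, although lipopolysaccharide was given to the dam. Library totals ran from 17846282 to 24460104 counts.

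Glutamate is loaded into synaptic vesicles by the vesicular transporters, of which Slc17a7 (VGLUT1) is the main form in cortical pyramidal cells, Slc17a6 (VGLUT2) the main form in thalamus and other subcortical regions, and Slc17a8 (VGLUT3) a form of sparse neurons. Once released, glutamate opens AMPA and kainate receptor channels, which carry fast excitation, and NMDA receptor channels, which admit calcium and need a pair of GluN1 subunits with GluN2 or GluN3 partners. Metabotropic receptors act through G proteins instead. Group I receptors such as Grm5 are mostly postsynaptic and excite, whereas group II and III receptors mostly damp release. Which subunits a cell makes differs between brain regions, for example the NMDA subunit Grin2c and the group III receptor Grm4 are typical of cerebellar granule cells.

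The region of each library was checked against marker genes, and some control libraries did not match the rest. Control vehicle 1 had 175 CPM (counts per 1000000 counts of the library, with library sizes scaled by the trimmed mean of M-values) of the striatal dopamine receptor Drd1 and 1.26 CPM of the deep-layer cortical factor Fezf2. The summed level of 10 striatal markers was 4576 CPM there and 194 to 458 CPM in the other 19 libraries, with no striatal marker at 0 in control vehicle 1. In control vehicle 2 the summed level of 9 cerebellar markers was 3504 CPM, against 31.7 to 93.7 CPM elsewhere, and 377 CPM came from Gabra6, a GABA receptor subunit of cerebellar granule cells. Control vehicle 3 carried 1140.1 CPM of Ttr, the transthyretin gene of choroid plexus, and 8 choroid plexus markers summed to 1271 CPM there. Control rapamycin 1 had the fewest genes detected, 22326, and the lowest mitochondrial share, 2.10% of counts. Control vehicle 4 and 5 were nearer to the other groups but also stood above them, with choroid plexus sums of 15.9 and 20.2 CPM, against 2.28 to 15.7 CPM in the other 3 groups, and cerebellar sums of 76.9 and 64.5 CPM, against 31.7 to 60.3 CPM. Comparisons with control vehicle mice use all 5 control vehicle libraries unless control vehicle 4 and 5 alone are named, a setting that rests on 2 libraries. In bulk tissue, fewer cells of a type and less RNA per cell cannot be told apart.

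The members themselves showed the same libraries standing apart. Of 29 members with a median of at least 1 CPM, control vehicle 1 lay above all 18 other libraries (those outside control vehicle 1 and 2) for 9 and below all of them for 8. Control vehicle 2 lay above them for 4 and below them for 17. Slc17a7 had 12.3 CPM in control vehicle 1 and 654 CPM in control vehicle 2, against 1153 to 1671 CPM in the 18 others. Slc17a8 had 11.3 CPM in control vehicle 1, against 1.11 to 2.53 CPM in the 18 others, and Grm2 had 8.26 CPM there, against 42.4 to 103 CPM. In control vehicle 2, Grm4 had 262 CPM, Grin2c 244 CPM and the AMPA subunit Gria4 392 CPM, against 21.1 to 42.4, 31.7 to 58.6 and 99.1 to 143 CPM in the 18 others. Control vehicle 3 lay within the range of the remaining 17 libraries for 24 of 29 members. Control rapamycin 1 lay outside that range for 17 of 29, above it for 8 and below it for 9. The shares of all genes in such positions were not counted, so these counts are not read as particular to the members. The 31 members include 10 whose exons overlap exons of a gene on the other strand, and the strand setting of the counting is not stated.

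**Figure D1:**
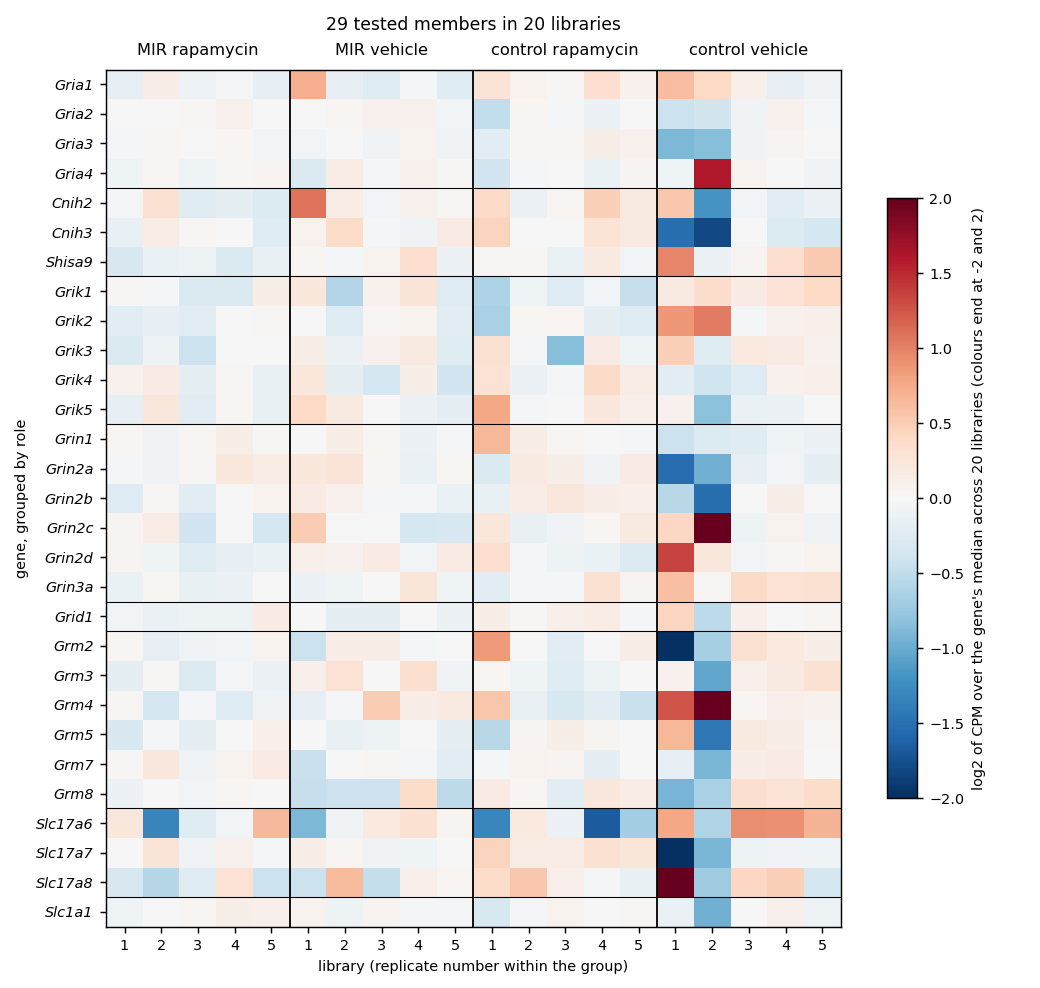
Heat map of the 29 tested members (rows, ordered by role, with lines between roles) in 20 libraries (columns, 5 per group). Colour gives log2 of CPM over the gene's median across the 20 libraries and is capped at -2 and 2. Control vehicle 1 and 2 hold the deepest colours, with Grm4 and Grin2c high in control vehicle 2 and Slc17a7 and Grm2 low in control vehicle 1.

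Per kilobase of exon, Slc17a7 stood highest of the 31 members, at a median of 229 CPM per kb over the 20 libraries (range 2.28 to 309.9). Grin1, which encodes the obligatory GluN1 subunit, followed with 60.4 CPM per kb, then Cnih2 with 55.6, Gria1 with 52.9 and Gria2 with 44.98 CPM per kb. The ranges of these 4 over the 20 libraries overlapped, and their order within each library was not tested. At the low end, Slc17a8 had 0.348 CPM per kb and Grin3b, a GluN3 subunit gene, 0.0691 CPM per kb. Grm6, the receptor of retinal ON bipolar cells, had 4 counts in control vehicle 4, 1 count in control vehicle 3 and 0 in the other 18 libraries. With 0 counts these libraries allow up to 0.122 to 0.173 CPM (3 counts per library, counting error only). Grin3b reached 2.13 CPM in control vehicle 2 and at most 0.652 CPM elsewhere. Grm6 and Grin3b were not tested in the fit of all 20 libraries.

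Each family's make-up was read as shares of its summed CPM per kb, over the 18 libraries outside control vehicle 1 and 2. Slc17a7 made up 94.3% to 99.2% of vesicular transporter RNA, Slc17a6 0.717% to 5.45% and Slc17a8 0.0852% to 0.223%. In control vehicle 1 those shares were 14.5%, 70.2% and 15.3%. Among GluN2 subunits Grin2b, dominant early in life and in forebrain, held 42.8% to 50.5% and Grin2a, which rises with maturation, 30.1% to 38.5%. Grin2c held 10.8% to 17.6% in the 18 libraries but 67.8% in control vehicle 2. Grik5, a high-affinity subunit that needs a partner to form channels, held 54.9% to 69.5% of kainate receptor RNA, and Grik3 14.99% to 28.2%. Grm3, a group II receptor also made by astrocytes, held 32.5% to 41.4% of metabotropic receptor RNA and Grm5 17.8% to 32.4%. Grm4 held 4.60% to 8.71% there and 55.5% in control vehicle 2.

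A member was called when edgeR's quasi-likelihood test gave a Benjamini-Hochberg adjusted p under 0.05 over all genes tested and the log2 fold change exceeded 0.5 in size, the criteria in the study's methods. The study's tables of bulk results state a larger fold bound and a looser adjusted p, which were tried as an alternative. In control rapamycin against control vehicle mice, 4 of 29 members were called, where 5.23% of all genes tested were. Of the 4, 1 was higher (Cnih3; 1.52% of all genes) and 3 were lower (Grik1, Grik2 and Grm4; 3.71% of all genes). An unadjusted p under 0.05 was reached by 13 of 29 members and 27.3% of all genes. The median log2 fold change of the 29 was 0.03, and -0.03 over all genes. Against control vehicle 4 and 5 alone the filter on counts passed 30 members among 17993 genes. There the count was 0 of 30 members, with 0.2% of all genes called, and 7 members (13.9% of all genes) reached an unadjusted p under 0.05. Leaving out control rapamycin 1 as well also gave 0 called of 29, a setting for which the share of all genes is not given. Marker genes of other cells and regions moved in the same comparison. Called lower were 3 of 8 oligodendrocyte, 2 of 8 astrocyte, 2 of 7 thalamic and 4 of 5 cerebellar markers tested. So were 2 of 4 choroid plexus, 1 of 7 deep-layer, 1 of 7 hippocampal and 1 of 6 endothelial markers. Called higher were 1 of 8 astrocyte and 1 of 8 upper-layer markers. Of 9 striatal, 8 interneuron, 6 microglial, 4 oligodendrocyte precursor and 1 hypothalamic markers, 0 were called. Yet all 9 striatal markers were lower at an unadjusted p under 0.05, with a median log2 fold change of -1.92. The striatal sum was highest in control vehicle 1. The cerebellar sum was highest in control vehicle 2. The summed oligodendrocyte level was 2907 to 4153 CPM in control rapamycin libraries, against 2520 to 10029 CPM in control vehicle libraries, and its part in the members' values was not tested.

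In MIR vehicle against control vehicle mice, a comparison that shares its control libraries with the rapamycin one, 0 of 29 members were called and 0.0982% of all genes were. There, 10 members had an unadjusted p under 0.05, against 16.3% of all genes, and the lowest adjusted p was 0.119, for Grin3a. DESeq2 and limma voom also called 0 members. Set against control vehicle 4 and 5 alone, 0 of 30 members (0% of all genes) were called, and 4 reached an unadjusted p under 0.05, as did 6.89% of all genes. In MIR rapamycin against MIR vehicle mice, 0 of 29 members and 0.0173% of all genes were called, and 0 members had an unadjusted p under 0.05 (4.99% of all genes). In MIR rapamycin against control rapamycin mice, 0 of 29 members and 0% of all genes were called, with 0 members at an unadjusted p under 0.05 (10.1% of all genes). The difference between the rapamycin effects in MIR and in control mice (interaction) was called for 0 of 29 members and 0% of all genes, with 7 members at an unadjusted p under 0.05 (12.7% of all genes). Averaged over both backgrounds, rapamycin gave 0 called members of 29 (1.42% of all genes) and 8 members at an unadjusted p under 0.05 (19% of all genes). The averaged MIR effect gave 0 of 29 (0.606% of all genes) and 7 at an unadjusted p under 0.05 (13.2% of all genes). DESeq2 called 0 members in each of these as well, while limma voom called 1, Slc17a6, for the averaged rapamycin effect. Shares of all genes called by DESeq2 and limma voom are not given here.

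**Figure D2:**
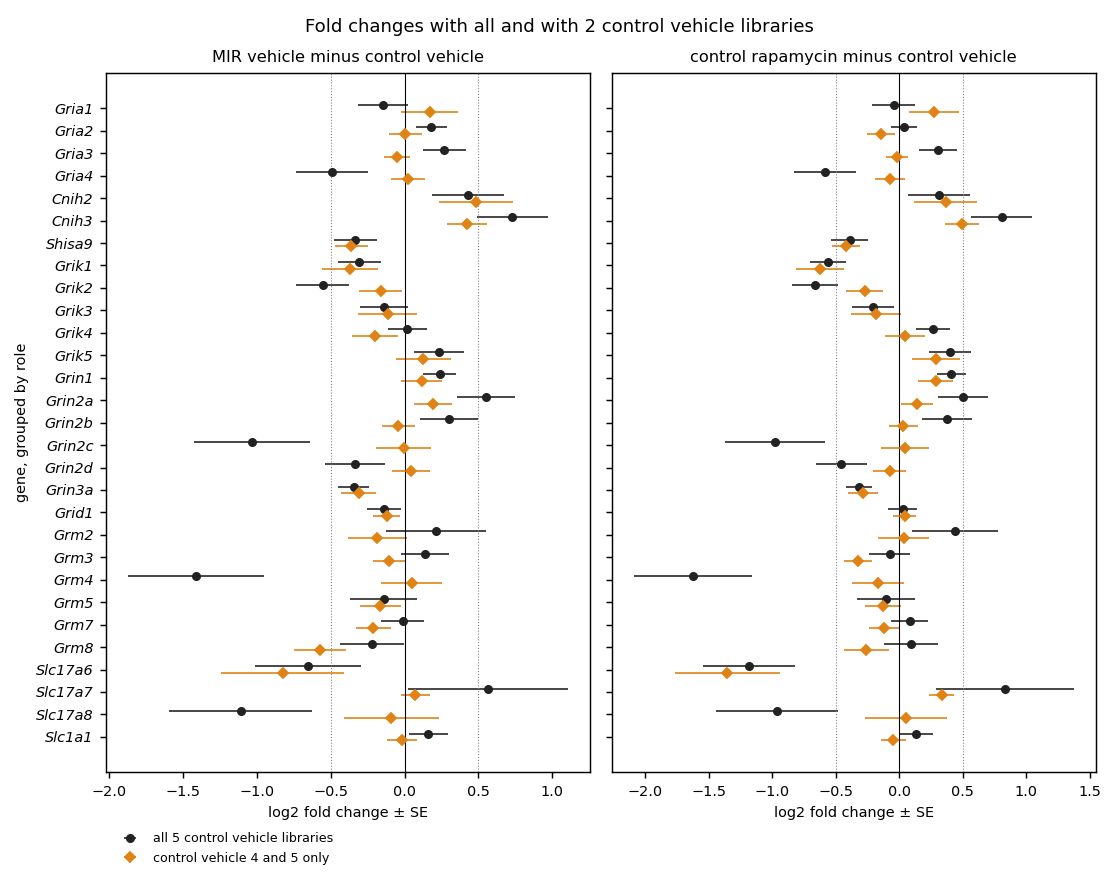
Log2 fold changes (horizontal axis, ± SE) of the 29 tested members in MIR vehicle minus control vehicle (left) and control rapamycin minus control vehicle (right). Circles use all 5 control vehicle libraries, diamonds control vehicle 4 and 5 only, and dotted lines mark -0.5 and 0.5. In the right panel Grm4 lies at -1.63 as a circle and -0.17 as a diamond, and Grin2c at -0.98 and 0.04, while Grik1 (-0.56 and -0.62) and Slc17a6 (-1.18 and -1.35) keep similar places.

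AMPA receptor subunits did not pass the test in any comparison. Gria1, whose receptors are delivered to synapses with activity, averaged 358 ± 35.3 CPM in control rapamycin and 369 ± 85.1 CPM in control vehicle libraries (SD, n = 5 each). Gria1 had a log2 fold change of -0.04 ± 0.17, and 0.27 ± 0.19 with control vehicle 4 and 5 alone (adjusted p = 0.552). Its highest value of all was 528 CPM in MIR vehicle 1, against 271 to 311 CPM in the other 4 MIR vehicle libraries. Gria2, the subunit that blocks calcium entry through AMPA receptors, had log2 fold changes of 0.18 ± 0.10 in MIR vehicle against control vehicle (adjusted p = 0.395) and 0.04 ± 0.10 in control rapamycin against control vehicle (adjusted p = 0.848). With control vehicle 4 and 5 alone, Gria2 had 0.01 ± 0.11 and -0.14 ± 0.11. Gria3 had 0.27 and 0.31 in these comparisons, and -0.05 and -0.02 with control vehicle 4 and 5 alone. Gria4, a subunit of interneurons and cerebellum, had -0.58 ± 0.24 in control rapamycin against control vehicle (adjusted p = 0.129), and -0.07 ± 0.12 without control vehicle 1, 2 and 3.

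Among AMPA receptor auxiliary genes, Cnih3, a cornichon protein that slows channel closing, was called higher in control rapamycin than in control vehicle mice. It lies at chromosome 1, 181352628 to 181460641, on the plus strand (GRCm38, the mm10 build). Cnih3 had 39.9, 48.8, 44.8, 43.9 and 37.2 CPM in MIR rapamycin libraries, against 46.3, 56.95, 43.2, 42.2 and 49.8 CPM in MIR vehicle libraries. It had 59.96, 44.6, 43.7, 53.2 and 50.1 CPM in control rapamycin libraries, against 15.5, 12.7, 44.5, 36.4 and 34.8 CPM in control vehicle libraries. All 5 control rapamycin libraries lay above control vehicle 1, 2, 4 and 5, control vehicle 3 lay just inside their range, and control vehicle 1 and 2 were the lowest of the 20. The log2 fold change was 0.81 ± 0.24 (adjusted p = 0.0455), and 0.49 ± 0.14 (adjusted p = 0.121) with control vehicle 4 and 5 alone. The call held in 3 of the 20 fits that each left out 1 library, with adjusted p between 0.0184 and 0.0899. Leaving out control vehicle 1 gave 0.65 (adjusted p = 0.0729) and leaving out control vehicle 2 gave 0.62 (adjusted p = 0.0733). In MIR vehicle against control vehicle it had 0.73 ± 0.24 (adjusted p = 0.143), and the interaction was -0.96 ± 0.34 (adjusted p = 0.332), the lowest p of any member there. With control vehicle 4 and 5 alone these were 0.42 ± 0.14 (adjusted p = 0.520) and -0.64 ± 0.17 (adjusted p = 0.623).

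Cnih2, the cornichon most studied in hippocampal AMPA receptors, was not called. Cnih2 had 75.1, 94.5, 64.4, 67.1 and 62.8 CPM in MIR rapamycin libraries, against 162, 84.2, 73.02, 80.8 and 77.2 CPM in MIR vehicle libraries. It had 99.02, 70.1, 78.3, 106 and 86.5 CPM in control rapamycin libraries, against 111, 33.6, 73.3, 66.1 and 69.9 CPM in control vehicle libraries. MIR vehicle 1 was the highest of all 20 libraries, and in that library the summed level of 7 hippocampal markers was 268 CPM, against 98.2 to 129 CPM in the other MIR vehicle libraries. The summed level was 109 to 167 CPM in MIR rapamycin libraries, and its part in the Cnih2 value was not tested. In MIR rapamycin against MIR vehicle the log2 fold change was -0.39 ± 0.25 (adjusted p = 0.99996). Shisa9, an AMPA receptor partner first described in dentate gyrus, had the lowest p of any member in that comparison. Shisa9 had 41.5, 47.2, 48.2, 42.5 and 46.6 CPM in MIR rapamycin libraries, against 53.2, 51.3, 54.4, 65.7 and 48.05 CPM in MIR vehicle libraries. It had 52.5, 53.2, 47.5, 58.8 and 50.05 CPM in control rapamycin libraries, against 102, 47.6, 53.8, 65.2 and 74.7 CPM in control vehicle libraries. Control vehicle 1 and 5 were the highest of the 20 libraries and the 4 lowest were MIR rapamycin libraries, with a slight overlap between both MIR groups. MIR rapamycin against MIR vehicle gave -0.27 ± 0.15 (adjusted p = 0.99996). The averaged rapamycin effect on Shisa9 was -0.33 ± 0.10 (adjusted p = 0.0910). Using control vehicle 4 and 5 alone, it was -0.34 ± 0.07 (adjusted p = 0.0171), under the fold bound of 0.5. Control rapamycin against control vehicle gave -0.39 ± 0.15 for Shisa9 (adjusted p = 0.0960), and the averaged MIR effect was -0.27 ± 0.10 (adjusted p = 0.273). Control vehicle 4 and 5 alone gave -0.42 ± 0.11 and -0.28 ± 0.07.

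Of the 5 kainate receptor genes, Grik1 and Grik2 were called lower in control rapamycin than in control vehicle mice. Against control vehicle 4 and 5 alone neither was called. Grik1 encodes the GluK1 subunit, found mainly in interneurons, and lies at chromosome 16, 87895900 to 88290265, on the minus strand. Grik1 had 16.6, 16.2, 13.4, 13.5 and 17.8 CPM in MIR rapamycin libraries, against 18.9, 10.9, 17.4, 19.5 and 13.8 CPM in MIR vehicle libraries. It had 10.7, 15.3, 13.7, 15.7 and 11.95 CPM in control rapamycin libraries, against 18.5, 20.95, 18.4, 19.9 and 21.5 CPM in control vehicle libraries. All 5 control rapamycin libraries lay below all 5 control vehicle libraries, the only tested member with that order, where 2.8% of all genes had it. Control vehicle 1 and 2 lay within the range of control vehicle 3, 4 and 5 for Grik1. The summed level of 8 interneuron markers was 937 to 1029 CPM in control rapamycin libraries, against 841 to 2396 CPM in control vehicle libraries, and its part was not tested. The log2 fold change was -0.56 ± 0.14 (adjusted p = 0.0271), and -0.62 ± 0.19 (adjusted p = 0.150) with control vehicle 4 and 5 alone. It was called in 17 of 20 fits that left out 1 library, and not without control rapamycin 1 (adjusted p = 0.0587), control rapamycin 3 (0.0506) or control rapamycin 5 (0.0595). MIR vehicle against control vehicle gave -0.31 ± 0.14 (adjusted p = 0.292) for Grik1, MIR rapamycin against MIR vehicle gave -0.05 ± 0.14, and the interaction was 0.51 ± 0.20 (adjusted p = 0.342). Against control vehicle 4 and 5 alone, MIR vehicle gave -0.37 ± 0.19 and the interaction was 0.57 ± 0.24.

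Grik2 encodes GluK2, the most widespread kainate receptor subunit, and lies at chromosome 10, 49094833 to 49788766, on the minus strand. Grik2 had 41.7, 43.1, 41.9, 48.6 and 49.3 CPM in MIR rapamycin libraries, against 47.9, 40.3, 49.4, 50.6 and 41.7 CPM in MIR vehicle libraries. It had 30.8, 49.6, 49.7, 42.8 and 40.4 CPM in control rapamycin libraries, against 88.5, 99.1, 47.2, 51.03 and 51.8 CPM in control vehicle libraries. Control vehicle 1 and 2 stood above the other 18 libraries, which ran between 30.8 and 51.8 CPM. Control rapamycin against control vehicle gave -0.66 ± 0.18 (adjusted p = 0.0338), and -0.27 ± 0.15 (adjusted p = 0.411) with control vehicle 4 and 5 alone. The call was lost without control vehicle 1 (-0.55, adjusted p = 0.0636), control vehicle 2 (-0.49, 0.0902) and control rapamycin 1, 4 or 5 (adjusted p of 0.0735, 0.0589 and 0.0652). MIR vehicle against control vehicle gave -0.56 ± 0.18 (adjusted p = 0.136) for Grik2, and -0.16 ± 0.15 with control vehicle 4 and 5 alone.

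The other kainate genes were not called. Grik5 had the lowest p of any member in MIR rapamycin against control rapamycin mice. Grik5 had 177, 232, 170.4, 204 and 179 CPM in MIR rapamycin libraries, against 262, 226, 199, 184 and 174 CPM in MIR vehicle libraries. It had 338, 194, 199, 229 and 213 CPM in control rapamycin libraries, against 212, 113, 182, 184 and 198 CPM in control vehicle libraries. Control rapamycin 1 was the highest of the 20 libraries, and the 2 groups overlapped. MIR rapamycin against control rapamycin gave -0.29 ± 0.17 (adjusted p = 0.584). Grik3 and Grik4 had -0.20 ± 0.16 and 0.26 ± 0.13 in control rapamycin against control vehicle, with adjusted p of 0.442 and 0.201, and -0.18 ± 0.20 and 0.04 ± 0.16 with control vehicle 4 and 5 alone. Grik3 was lowest in control rapamycin 3, at 77.3 CPM.

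**Figure D3:**
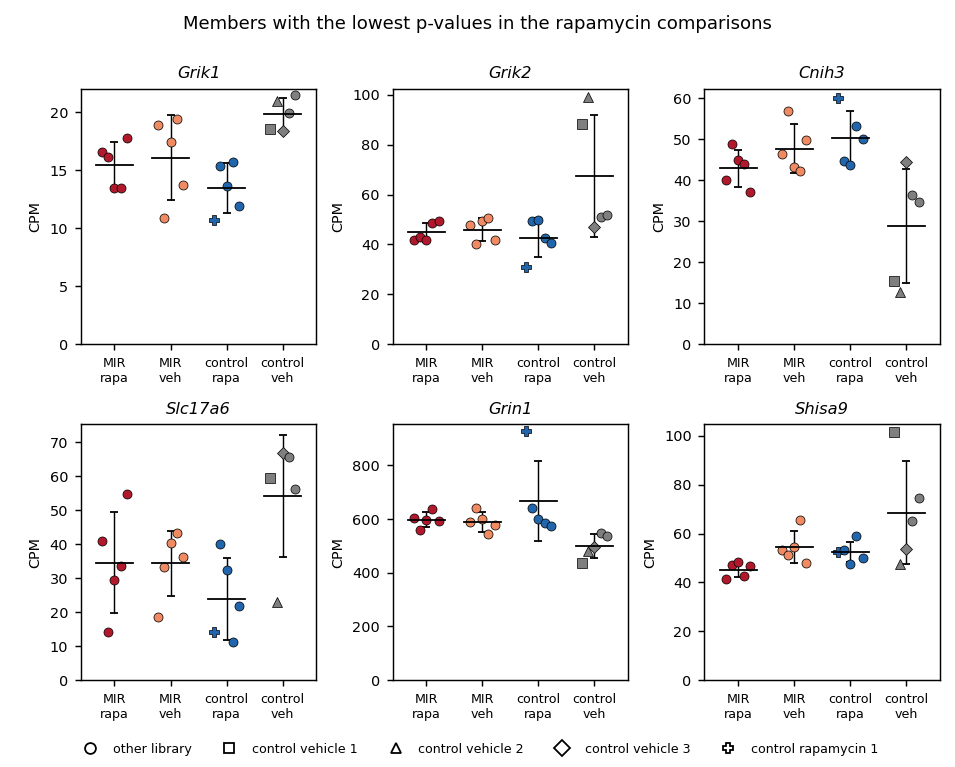
CPM (linear axes from 0) of 6 members in each library, by group. Bars give the group mean ± SD (n = 5), and separate marker shapes show control vehicle 1, 2 and 3 and control rapamycin 1. Grik1 in control rapamycin libraries (10.7 to 15.7 CPM) lies under all control vehicle libraries, Grik2 and Cnih3 in control vehicle split between 2 libraries and the other 3, and Slc17a6 spans 11.1 to 66.7 CPM.

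NMDA receptor genes were not called in any comparison. Grin1 passed the adjusted p in control rapamycin mice but not the fold bound. Grin1 had 604, 559, 596, 636 and 594 CPM in MIR rapamycin libraries, against 587, 642, 599, 542 and 576 CPM in MIR vehicle libraries. It had 928, 640.2, 599, 584 and 575 CPM in control rapamycin libraries, against 435, 482, 494, 549 and 538 CPM in control vehicle libraries. All 5 control rapamycin libraries lay above all control vehicle libraries, as for 3.75% of all genes, and control rapamycin 1 was the highest of the 20. The log2 fold change was 0.41 ± 0.11 (adjusted p = 0.0325, reached by 7.8% of all genes), 0.26 ± 0.07 without control rapamycin 1 (adjusted p = 0.0467) and 0.29 ± 0.14 with control vehicle 4 and 5 alone (adjusted p = 0.369). Leaving out control rapamycin 1 and control vehicle 1, 2 and 3 together gave 0.14 ± 0.07 (adjusted p = 0.360). The interaction was -0.39 ± 0.16 (adjusted p = 0.342), and -0.26 ± 0.17 with control vehicle 4 and 5 alone. Of the 9700 bases of Grin1 exons, 1307 overlap exons on the other strand.

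Grin3a, a GluN3 subunit that lowers calcium entry, had the lowest p of any member in MIR vehicle against control vehicle mice. Grin3a had 38.9, 43.6, 38.5, 39.2 and 42.8 CPM in MIR rapamycin libraries, against 39.1, 39.95, 41.99, 49.97 and 40.2 CPM in MIR vehicle libraries. It had 36.1, 41.4, 41.3, 52.2 and 44.03 CPM in control rapamycin libraries, against 64.4, 43.1, 55.6, 51.9 and 52.7 CPM in control vehicle libraries. Control vehicle 1, 3, 4 and 5 lay above all 10 MIR libraries, while control vehicle 2 lay among them. MIR vehicle against control vehicle gave -0.34 ± 0.10 (adjusted p = 0.119), and -0.31 ± 0.12 with control vehicle 4 and 5 alone (adjusted p = 0.615). Control rapamycin against control vehicle gave -0.32 ± 0.10 (adjusted p = 0.0636) for Grin3a, and the averaged MIR effect was -0.21 ± 0.07 (adjusted p = 0.229). Control vehicle 4 and 5 alone gave -0.29 ± 0.12 and -0.19 ± 0.08.

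Grin2c, a GluN2 subunit of cerebellar granule cells and of astrocytes, was high in 1 library and not called. Grin2c had 43.1, 45.7, 31.7, 41.2 and 32.5 CPM in MIR rapamycin libraries, against 58.6, 40.9, 41.3, 32.3 and 33.04 CPM in MIR vehicle libraries. It had 48.1, 37.1, 39.3, 42.6 and 46.8 CPM in control rapamycin libraries, against 55.01, 244, 38.5, 43.4 and 39.2 CPM in control vehicle libraries. Control vehicle 2 stood alone, and the remaining 19 libraries ran from 31.7 to 58.6 CPM. The log2 fold change was -1.03 ± 0.39 in MIR vehicle (adjusted p = 0.198) and -0.98 ± 0.39 in control rapamycin mice (adjusted p = 0.115), each against control vehicle. Against control vehicle 4 and 5 alone they were -0.01 ± 0.19 and 0.04 ± 0.19. Grin2a had 0.55 ± 0.20 and 0.50 ± 0.20 in these comparisons (adjusted p = 0.171 and 0.108), and 0.19 ± 0.13 and 0.14 ± 0.13 with control vehicle 4 and 5 alone. Grin2a averaged 377 ± 41.6 CPM in MIR vehicle and 257 ± 97.5 CPM in control vehicle libraries (SD, n = 5 each), where control vehicle 1 had 123 CPM. Grin2b had 0.38 ± 0.20 and Grin2d, an interneuron subunit, -0.45 ± 0.20 in control rapamycin against control vehicle (adjusted p = 0.222 and 0.154). Both were near 0 with control vehicle 4 and 5 alone, at 0.03 ± 0.11 for Grin2b and -0.08 ± 0.13 for Grin2d, and control vehicle 2 had 242 CPM of Grin2b and control vehicle 1 43.7 CPM of Grin2d. Grid1, a delta receptor that binds cerebellin-neurexin complexes rather than passing glutamate current, had log2 fold changes between -0.14 and 0.05 in the 4 pairwise comparisons.

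**Figure D4:**
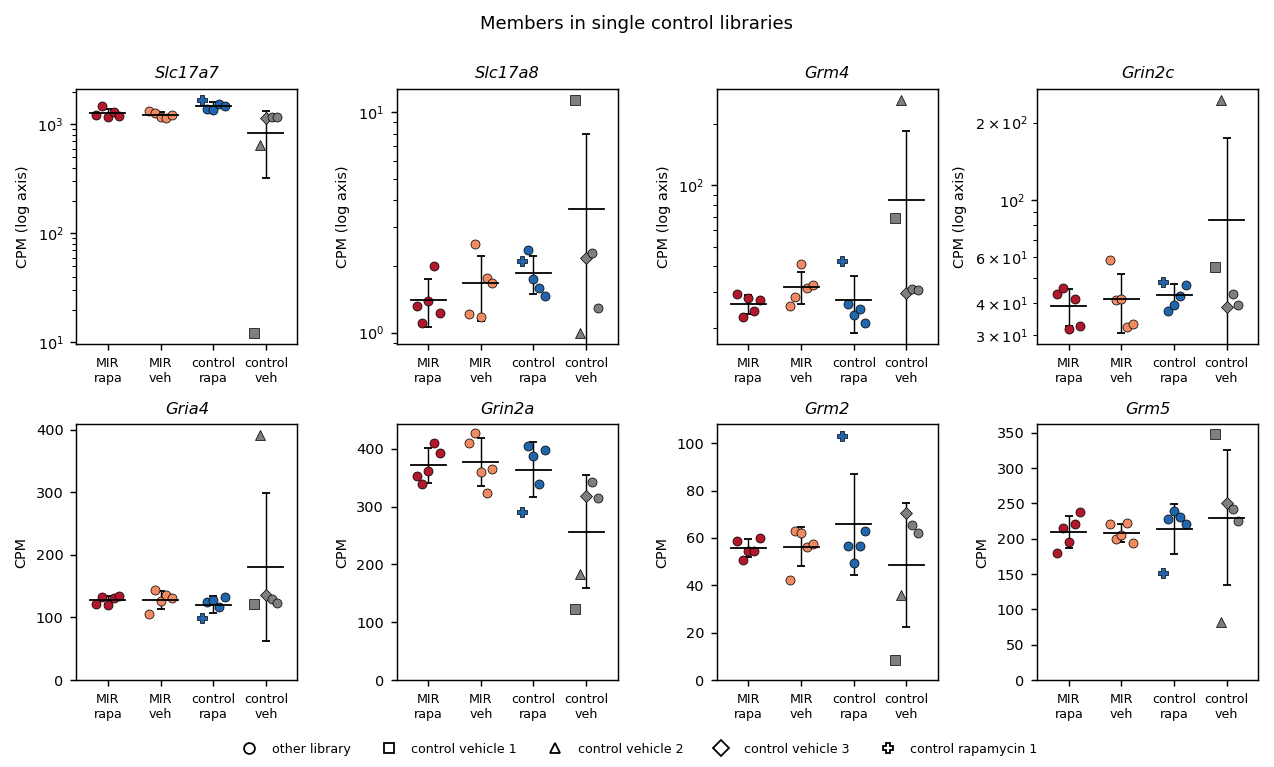
CPM of 8 members in each library, by group, on log axes for Slc17a7, Slc17a8, Grm4 and Grin2c and on linear axes from 0 for the others. Bars give the group mean ± SD (n = 5), and marker shapes show control vehicle 1, 2 and 3 and control rapamycin 1. Control vehicle 1 stands apart for Slc17a7 (12.3 CPM) and Slc17a8 (11.3 CPM), and control vehicle 2 for Grm4 (262 CPM), Grin2c (244 CPM) and Gria4 (392 CPM).

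Of the metabotropic receptors, Grm4 was called lower in control rapamycin than in control vehicle mice, but not without control vehicle 2. This group III receptor is a presynaptic brake at parallel fibre and striatal synapses, and its gene lies at chromosome 17, 27422387 to 27521403, on the minus strand. Grm4 had 29.1, 22.5, 27.996, 24.05 and 27.4 CPM in MIR rapamycin libraries, against 25.7, 28.4, 40.9, 31.4 and 32.4 CPM in MIR vehicle libraries. It had 42.4, 26.1, 23.1, 24.6 and 21.1 CPM in control rapamycin libraries, against 69.01, 262, 29.7, 30.9 and 30.5 CPM in control vehicle libraries. Control vehicle 2 and 1 were the highest of the 20 libraries, and control rapamycin 1 came next. The log2 fold change was -1.63 ± 0.46 (adjusted p = 0.0392), -0.55 ± 0.23 without control vehicle 2 (adjusted p = 0.179) and -0.17 ± 0.21 with control vehicle 4 and 5 alone (adjusted p = 0.752). The call was also lost without control rapamycin 2, 3, 4 or 5, at -1.61 to -1.54 and adjusted p of 0.0633 to 0.0793. MIR vehicle against control vehicle gave -1.41 ± 0.46 (adjusted p = 0.140) for Grm4, and 0.05 ± 0.21 with control vehicle 4 and 5 alone.

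Grm3 was among the 3 members with the lowest p in MIR rapamycin against MIR vehicle mice. Grm3 had 74.8, 85.95, 69.6, 81.9 and 78.3 CPM in MIR rapamycin libraries, against 90.9, 103, 85.4, 105 and 80.6 CPM in MIR vehicle libraries. It had 87.1, 79.9, 71.4, 78.9 and 83.7 CPM in control rapamycin libraries, against 89.8, 41.3, 90.5, 96.2 and 104 CPM in control vehicle libraries. The control vehicle 2 library was the lowest of the 20, and the MIR groups overlapped. MIR rapamycin against MIR vehicle gave -0.25 ± 0.16 (adjusted p = 0.99996). The averaged rapamycin effect on Grm3 was -0.16 ± 0.11 (adjusted p = 0.456), and -0.29 ± 0.07 (adjusted p = 0.0349) with control vehicle 4 and 5 alone, under the fold bound. In that setting 0.939% of all genes and 0 members were called. Without the bound 1.72% of all genes had an adjusted p under 0.05, and Grm3 and Shisa9 were the members among them.

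The remaining metabotropic genes were not called. Grm5, the main group I receptor of forebrain, had -0.14 ± 0.23 in MIR vehicle and -0.10 ± 0.23 in control rapamycin mice against control vehicle, and -0.17 and -0.13 against control vehicle 4 and 5 alone. It had 349 CPM in control vehicle 1 and 82.4 CPM in control vehicle 2, the highest and the lowest of the 20 libraries. Grm2, a presynaptic group II receptor, averaged 65.7 ± 21.5 CPM in control rapamycin and 48.5 ± 26.2 CPM in control vehicle libraries (SD, n = 5 each), with 103 CPM in control rapamycin 1 and 8.26 CPM in control vehicle 1. Grm2 had a log2 fold change of 0.44 ± 0.34, and 0.03 ± 0.20 with control vehicle 4 and 5 alone. Grm7, a group III receptor of the presynaptic active zone, had log2 fold changes between -0.01 and 0.20 in the 4 pairwise comparisons, and -0.21 in MIR vehicle and -0.12 in control rapamycin mice against control vehicle 4 and 5 alone. Grm8 had -0.22 ± 0.21 in MIR vehicle against control vehicle (adjusted p = 0.662), and -0.57 ± 0.18 with control vehicle 4 and 5 alone (adjusted p = 0.502). MIR vehicle 1, 2, 3 and 5 had 13.9 to 15.1 CPM of Grm8, MIR vehicle 4 25.8 CPM, and control vehicle 3, 4 and 5 24.3 to 25.9 CPM.

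Across all groups with control vehicle 1 and 2 set aside, Slc17a6 spanned 6.02-fold between the highest and the lowest of 18 libraries, differences between groups included, against at most 2.58-fold for the other 28 members at 1 CPM or more. Slc17a6 had 40.8, 14.1, 29.5, 33.6 and 54.8 CPM in MIR rapamycin libraries, against 18.7, 33.4, 40.2, 43.3 and 36.4 CPM in MIR vehicle libraries. It had 14.2, 39.9, 32.4, 11.1 and 21.9 CPM in control rapamycin libraries, against 59.5, 22.997, 66.7, 65.8 and 56.2 CPM in control vehicle libraries. Control vehicle 3, 4, 1 and 5 were the highest of the 20 libraries, and control rapamycin 4 was the lowest. Control rapamycin against control vehicle gave -1.18 ± 0.36, just short of a call (adjusted p = 0.0510). The change against control vehicle 4 and 5 alone was -1.35 ± 0.41 (adjusted p = 0.158). Across 30 alternatives it ran between -1.44 and -0.998, with 8 calls. MIR vehicle against control vehicle gave -0.66 ± 0.36 (adjusted p = 0.381), MIR rapamycin against control rapamycin 0.53 ± 0.36 (adjusted p = 0.651) and the interaction 1.19 ± 0.51 (adjusted p = 0.364). Control vehicle 4 and 5 alone gave -0.83 ± 0.42 for MIR vehicle and 1.36 ± 0.54 for the interaction. The summed level of 8 thalamic markers was 61.9 to 75.4 CPM in control rapamycin libraries, against 85.5 to 170 CPM in control vehicle libraries, and its part in the Slc17a6 value was not tested.

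Slc17a7 was higher in every control rapamycin library than in any control vehicle library, as were 3.75% of all genes. Its values were 1671, 1373, 1368, 1531 and 1465 CPM, against 12.3, 654, 1153, 1181 and 1163 CPM in control vehicle libraries. The log2 fold change was 0.83 ± 0.54 (adjusted p = 0.336). Without control vehicle 1 it was 0.51 ± 0.13 (adjusted p = 0.0295), a call, and with control vehicle 4 and 5 alone 0.33 ± 0.10 (adjusted p = 0.150). MIR libraries spanned 1172 to 1469 CPM with rapamycin and 1158 to 1343 CPM with vehicle, and the log2 fold change between them was 0.05 ± 0.54. Slc17a8 had -0.96 ± 0.48 in control rapamycin against control vehicle (adjusted p = 0.200), and 0.05 ± 0.32 with control vehicle 4 and 5 alone. Slc1a1, the neuronal glutamate uptake carrier EAAC1, had log2 fold changes of 0.16 in MIR vehicle and 0.13 in control rapamycin mice against control vehicle. Without control vehicle 1, 2 and 3 Slc1a1 had -0.02 and -0.05, and 2631 of its 8257 exon bases overlap exons on the other strand.

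Other genes of the glutamate synapse were read from 3 lists. Of 24 receptor scaffold and trafficking genes tested, 5 were called higher and 1 lower in control rapamycin against control vehicle mice. Over all genes tested, 1.52% were called higher and 3.71% lower. The median log2 fold change of the 24 was 0.36, against -0.03 over all genes. Among those called higher were Camk2a (0.94 ± 0.23), the kinase of synaptic potentiation, the neuronal pentraxins Nptx2 (1.08 ± 0.29) and Nptxr (1.08 ± 0.30), which cluster AMPA receptors, and the postsynaptic density gene Shank1 (0.79 ± 0.23). Homer3, a scaffold of cerebellar Purkinje cells, was lower (-2.69 ± 0.70), and control vehicle 2 had 126 CPM of it, against 10.5 CPM or less elsewhere. With control vehicle 4 and 5 alone, 0 of the 24 were called and the median was 0.15. Camk2a then had 0.45 ± 0.13 and Nptxr 0.62 ± 0.18, with adjusted p of 0.127 and 0.147. Nptx2 had 0.52 ± 0.25 and Shank1 0.36 ± 0.21, with adjusted p of 0.356 and 0.454. In the same comparison 0 of 16 further AMPA and kainate receptor auxiliary genes (median 0.17) and 0 of 17 genes of glutamate synthesis, uptake and cycling (median 0.05) were called with all libraries. With control vehicle 4 and 5 alone 1 of the 16 auxiliary genes, Gsg1l, was called (0.78 ± 0.16, adjusted p = 0.0465), where 0.2% of all genes were. In MIR vehicle against control vehicle mice 0 genes of any of the 3 lists were called, where 0.0982% of all genes were.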

How the data were processed

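Bulk RNA of 20 mouse brains was sequenced, with groups of 5 libraries read from GEO's titles. According to the protocols, libraries were made with a stranded mRNA kit, reads were aligned to the mm10 build with STAR 2.4.0 and counted per gene with HTSeq 0.6.1. The methods name RefSeq genes, whereas the table holds Ensembl identifiers. The authors deposited raw counts, whole numbers with no normalization, and removed outlier libraries that are not named. Genes were filtered with filterByExpr (minimum count 10, minimum total 15), scaled by the trimmed mean of M-values, and fitted over all 20 libraries with edgeR 4.0.16 (R 4.3.3), with 1 mean per group. The quasi-likelihood test gave p-values, adjusted by Benjamini-Hochberg over 17313 genes. SE is the log2 fold change over the square root of the F statistic. The fit was tested on simulated counts with known changes. Those counts held no library from another region, so that test does not cover libraries such as control vehicle 1 and 2. Lengths and overlaps came from GENCODE M21 (mm10), in which all 31 members were found. CPM per kb used the union of a gene's exons, which understates genes with long alternative exons.

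All members are accounted for. Values in every library are given for members called, for the 3 lowest p in each comparison, and for Grik1, Grik2, Grin2c and Grm4. Slc17a7, Grin2a, Gria4, Grm5, Grm2 and Grm8 were singled out after their values were seen. The values of 1 gene of the scaffold list are not reported here. The members, lists and rules were chosen with earlier results of these data known. Alternatives were DESeq2 1.42.0, limma 3.58.1 (voom), other thresholds, filters and sizes, a replicate block, the 2 groups alone and left-out libraries. Libraries of 1 group differed beyond counting noise (a chi-square of at least 5.50 for each degree of freedom), so none was merged.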

Additional observations from a re-analysis of the deposited data

Results flagged for a closer look

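A library was singled out when its gap to the nearest other library of its group exceeded Dixon's critical value of 0.710 of the group's range, which chance does in about 1 in 20 groups. This happened in 22 of 124 groups of 5 libraries, 7 times in control rapamycin 1, 7 times in control vehicle 2 and 2 times each in MIR vehicle 1, MIR vehicle 4 and control vehicle 1. Grm6 was 0 throughout control rapamycin, MIR vehicle and MIR rapamycin libraries, so these groups could not be flagged. Members share the same libraries and are not independent, so the 22 are not set against the rate of 1 in 20.

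Control vehicle 2 was high for Grm4 (262 CPM), Gria4 (392), Grin2c (244) and Grin3b (2.13), and low for Grm3 (41.3), Slc17a6 (23.0) and Slc1a1 (68.03 CPM). Control vehicle 1 was high for Grin2d (43.8 CPM) and Slc17a8 (11.3 CPM), and control vehicle 4 for Grm6 (0.183 CPM, from 4 counts). The low Slc17a7 of control vehicle 1 did not meet the criterion, since control vehicle 2 was low as well.

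Control rapamycin 1 was high for Grin1 (928 CPM), Grik5 (338), Grm2 (103), Grm4 (42.4) and Grin3b (0.514 CPM), and low for Grm5 (151) and Slc1a1 (108 CPM). Its mitochondrial share was 2.10%, against 3.86% to 6.54% elsewhere.

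MIR vehicle 1 was high for Gria1 (528 CPM) and Cnih2 (162 CPM), and MIR vehicle 4 for Grin3a (49.97 CPM) and Grm8 (25.8 CPM). MIR rapamycin 5 was high for Grid1 (74.8 CPM).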

How the results depend on the processing

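The count of 4 members called in control rapamycin against control vehicle mice was 2 with an adjusted p under 0.1 and a log2 fold change over 1 (Grm4 and Slc17a6), 2 with limma voom, 0 with only the 2 groups fitted and 0 without control vehicle 1, 2 and 3. Chosen after seeing the data, it was 1 (Slc17a6, -1.40, adjusted p = 0.0492) without control vehicle 1 and 2, and 0 when control rapamycin 1 was dropped along with control vehicle 1, 2 and 3. Leaving out 1 library at a time gave 0 to 5 called members there, with 0 called without control rapamycin 5, 1 without control rapamycin 1, 3 or 4 and 2 without control vehicle 2, and 0 to 0 in the other 6 comparisons. For the averaged rapamycin effect, limma voom called 1 member in place of 0 (Slc17a6, -0.78, adjusted p = 0.0365). In control rapamycin against control vehicle mice, 5.23% of all genes were called with all libraries and 0.2% without control vehicle 1, 2 and 3. Shares for the other alternatives are not given, so their counts are not read as particular to the members. No called member changed direction in any alternative. The replicate block called 0 of 29 members in control rapamycin against control vehicle mice. No pairing by replicate number was seen. Of 30 same-numbered pairs, 4 correlated above 0.1 in their deviations from the group means (range -0.145 to 0.204), and 6 matched their own number best. Deviations in control vehicle mice include control vehicle 1 and 2, so this check cannot exclude a pairing. Leaving out control vehicle 1, 2 and 3 leaves fewer libraries, and the changes of Grik2, Grm4 and Cnih3 were also smaller there. For the other alternatives the cause was not tested. Genes near 1 CPM, such as Slc17a8, rest on few counts.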
